A study of Homo sapiens with 30 samples.

Results

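The APOBEC3 genes encode cytidine deaminases, enzymes that convert cytosine to uracil in single-stranded DNA. All 7 human members, APOBEC3A, APOBEC3B, APOBEC3C, APOBEC3D, APOBEC3F, APOBEC3G and APOBEC3H, were taken by symbol from the 61471 genes of the TPM table (transcript abundance scaled by transcript length and library size) of each of the U87 and U251 glioblastoma lines. The culture conditions, 5 in number, were compared within each line. Untreated cells received no interferon-γ (IFN-γ), D3, D14 and D28 cells were kept in IFN-γ for 3, 14 and 28 days, and D28WO cells had IFN-γ for 14 days followed by 14 days without it (washout). All groups were wild-type cultures in the same serum-containing medium. The labels give the dose as 1 µg/mL in one field and 1 µL/mL in another, and place the Untreated harvest at day 3, whereas the methods describe a lower dose and a day 0 sample. Of 30 libraries, 28 were used, 15 of U251 and 13 of U87, with 2 U87 libraries each at D3 and D14 and 3 in every other group. The 2 remaining U87 columns carry 1 name between them and could not be assigned. Neither line's identity was checked by STR profiling in the authors' hands, and both names figure on a register of misidentified lines.

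APOBEC3 proteins restrict retroviruses and endogenous retroelements by deaminating their nascent complementary DNA. APOBEC3D, APOBEC3F, APOBEC3G and APOBEC3H are packaged into lentiviral particles, and the viral protein Vif counters them by recruiting a CUL5 ubiquitin ligase that marks them for degradation. APOBEC3A and APOBEC3B can also deaminate chromosomal DNA, and their preferred sequence contexts form a mutational signature of many tumors. Several members belong to the genes induced by interferons, most of all in leukocytes, whereas APOBEC3B is known as a gene of proliferating cells under control of the DREAM repressor complex.

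The members lie side by side on the plus strand of chromosome 22. In GENCODE release 44 on GRCh38 the cluster ran from APOBEC3A (chr22:38952741-38963184) through APOBEC3B (chr22:38982347-38992804), APOBEC3C (chr22:39014257-39020352), APOBEC3D (chr22:39021113-39033277), APOBEC3F (chr22:39040604-39055972) and APOBEC3G (chr22:39077067-39087743) to APOBEC3H (chr22:39097224-39104067). All 7 are protein-coding genes. Each deaminase domain holds a zinc-binding motif of a histidine, a glutamate and 2 cysteines. APOBEC3A, APOBEC3C and APOBEC3H carry 1 motif, and APOBEC3B, APOBEC3D, APOBEC3F and APOBEC3G carry 2, and each of the 11 motifs lies within 1 coding exon. The motif nearest the carboxy terminus is shown for the members that respond differently below, as an example of how alike their sequences are. It is shorter than a read, so it does not show which members reads can tell apart. Sequences are from the GRCh38 plus strand, 5′ to 3′, and capitals mark the codons of the histidine, the glutamate and both cysteines.
APOBEC3B, second motif, chr22:38991365-38991475: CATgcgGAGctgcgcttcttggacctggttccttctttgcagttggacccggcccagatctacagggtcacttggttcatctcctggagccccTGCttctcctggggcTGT
APOBEC3C, chr22:39017787-39017891: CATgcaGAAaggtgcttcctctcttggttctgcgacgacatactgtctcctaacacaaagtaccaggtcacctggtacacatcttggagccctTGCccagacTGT
APOBEC3D, second motif, chr22:39031715-39031819: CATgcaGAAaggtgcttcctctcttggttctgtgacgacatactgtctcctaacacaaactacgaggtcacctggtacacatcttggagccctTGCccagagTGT
APOBEC3G, second motif, chr22:39086312-39086416: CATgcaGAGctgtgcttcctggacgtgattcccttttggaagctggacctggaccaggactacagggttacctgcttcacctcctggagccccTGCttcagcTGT
APOBEC3H, chr22:39101246-39101350: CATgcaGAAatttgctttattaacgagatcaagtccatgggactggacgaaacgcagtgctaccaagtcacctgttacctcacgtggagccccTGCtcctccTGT

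The APOBEC3A motif, at chr22:38961420-38961530, was identical to the second APOBEC3B motif over all 111 bases. The second motif of APOBEC3F was identical to that of APOBEC3D over 105 bases, and the first motif of APOBEC3F was identical to that of APOBEC3B over 105 bases. APOBEC3C matched the second APOBEC3D motif at 101 of 105 bases, and APOBEC3H matched its nearest equal-length relative, the second APOBEC3G motif, at 65 of 105. Over the whole reference transcript, the share of 150-base stretches (the length of 1 read) that also occurred in another member was 8.61% for APOBEC3B, 6.12% for APOBEC3A, 5.2% for APOBEC3D, 4.03% for APOBEC3G and 2.99% for APOBEC3F, and 0 for APOBEC3C and APOBEC3H. All the stretches of APOBEC3G found elsewhere occurred in APOBEC3F. Levels of APOBEC3D and APOBEC3F, of APOBEC3F and APOBEC3G, of APOBEC3B and APOBEC3D, and of APOBEC3A and APOBEC3B, may therefore share some reads. APOBEC3C and APOBEC3D also overlap a readthrough gene on the same strand (ENSG00000284554), listed at 0 in all U87 libraries. APOBEC3B overlaps the antisense gene APOBEC3B-AS1, whose highest level was 0.57 TPM in U87 and 1.59 TPM in U251, and strand use in counting is not given in the sources used here.

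TPM values sum to the same total in every library, so they do not hold the read depth of each library, of which the methods state only a minimum, and no detection limit is given for genes at 0. Untreated U87 libraries had 24223 to 25459 genes above 0, and treated ones 26096 to 28649. Over all genes tested against Untreated, the median log2 fold change of D3, D14, D28 and then D28WO was 0.20, 0.15, 0.19 and 0.25 in U87 and 0.13, 0.10, 0.16 and 0.02 in U251. Increases made up 93.8%, 90.0%, 91.7% and 85.8% of the U87 calls in these comparisons, and 66.1%, 55.4%, 63.0% and 52.1% after quantile normalization. In U251 they made up 68.1%, 82.0% and 78.0% of the calls at D3, D14 and D28, and 49.3%, 62.1% and 52.3% after it. Of 9 glioma and astrocyte markers, 8 or 9 averaged at least 0.5 TPM in every group. OLIG2 was listed at 0 in Untreated U251, and SOX2 averaged at most 0.22 TPM in U87. Of 16 immune cell markers, 2 to 6 were at 0 in all libraries of a group, the T and B cell markers CD3D, CD3E and MS4A1 averaged at most 0.48 TPM, CD2 and CD4 averaged up to 2.37 and 2.46 TPM (both in U87), and the summed level of 238 to 496 TPM in U87 and 88.9 to 186 TPM in U251 was mostly CD68, which glioma cells also express. These sums were lower in D28WO than in Untreated U87 libraries (238 to 278 TPM against 366 to 438 TPM), and their part in the results was not tested. Of the marker genes called against Untreated, NKG7, listed at 0 in all Untreated U87 libraries and tested because of its treated ones, averaged 0.44 to 1.64 TPM in the treated groups, CSF1R of U87 fell by 1.69 after washout, and CD14 rose in U251 at all 4 times (up to 1.85). OLIG2, GFAP, S100B and FABP7 were called in U87, up to 1.78, 1.45, 1.06 and -1.03 on the log2 scale, and GFAP, S100B and NES were lower in U251, down to -2.37, -2.10 and -1.38. IRF1, a transcription factor induced by IFN-γ, averaged 133 TPM in Untreated, 122 TPM in D14 and 509.6 TPM in D28WO cells of U87, so its level did not follow the labelled presence of IFN-γ.

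**Figure D1:**
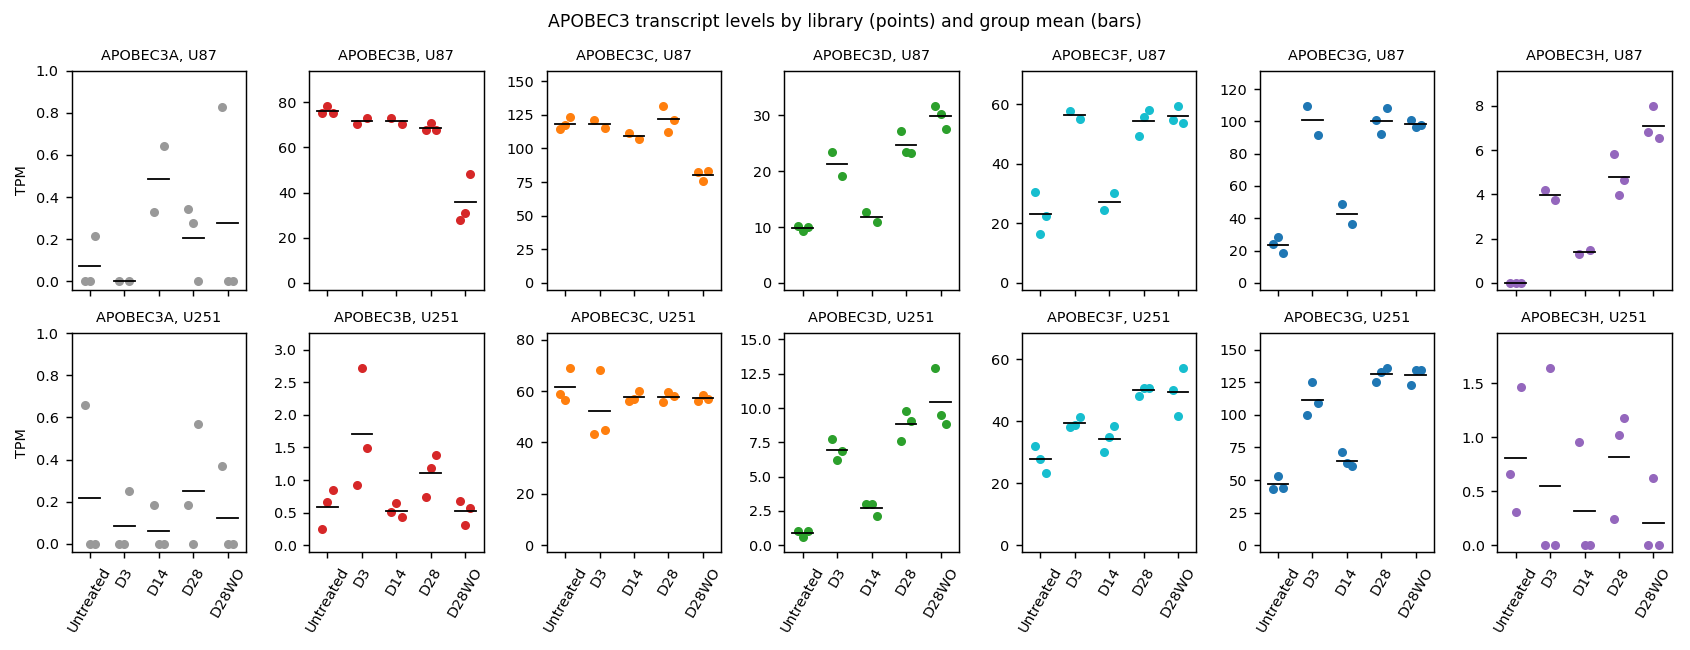
TPM of each APOBEC3 gene (columns) in each library of U87 (top) and U251 (bottom), by condition on the horizontal axis, with points for libraries and bars for group means; the vertical scale differs between panels. The means of APOBEC3D, APOBEC3F and APOBEC3G are higher at D3, D28 and D28WO than in Untreated in both lines, and APOBEC3B of U87 is lowest at D28WO.

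To characterize the family before treatment, levels were ordered within each line. TPM is scaled by transcript length, so levels can be set side by side between genes. In Untreated U87 cells APOBEC3C was the most abundant member, at 118 TPM, and 91.7% of the 29663 genes above 0 in that line had a lower mean. APOBEC3B followed at 76.3 TPM, APOBEC3G at 23.6 TPM, APOBEC3F at 23.2 TPM and APOBEC3D at 9.82 TPM. APOBEC3G and APOBEC3F libraries overlapped (18.4 to 28.2 TPM and 16.4 to 30.7 TPM). APOBEC3H was listed at 0 in all 3 libraries, and APOBEC3A reached 0.21 TPM in 1 of them.

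Untreated U251 cells had a different make-up. APOBEC3C again came first, at 61.5 TPM, then APOBEC3G at 46.8 TPM and APOBEC3F at 27.8 TPM. The remaining members were each under 1 TPM, with APOBEC3D at 0.90 TPM, APOBEC3H at 0.81 TPM, APOBEC3B at 0.58 TPM and APOBEC3A at 0.22 TPM. APOBEC3B, the second most abundant member in U87, held 30.4% of the summed APOBEC3 level there and 0.42% in U251. The tables of the lines were normalized separately, so these shares are given side by side without a test.

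The summed level of the 7 genes in U87 was 251.3 ± 2.83 TPM (SD, n = 3) in Untreated, 372 ± 19.9 TPM (n = 2) at D3, 264 ± 10.7 TPM (n = 2) at D14, 375 ± 13.8 TPM (n = 3) at D28 and 308 ± 7.92 TPM (n = 3) after washout. The sum of each U87 D3 or D28 library, 358 to 386 TPM, lay above every library of the other conditions. In U251 it was 139 ± 1.46 TPM in Untreated, 212 ± 27.2 TPM at D3, 161 ± 2.01 TPM at D14, 250 ± 10.3 TPM at D28 and 248 ± 7.68 TPM after washout (SD, n = 3 each). The make-up changed along with the sum. APOBEC3C and APOBEC3B together gave most of the Untreated U87 total (47.1% and 30.4%), and APOBEC3G gave 9.40%. After washout APOBEC3G was the largest part at 32.0%, above APOBEC3C at 26.1% and APOBEC3B at 11.6%. In U251 the APOBEC3G share went from 33.8% in Untreated to 52.5% at D3, 40.4% at D14, 52.5% at D28 and 52.5% after washout.

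**Figure D2:**
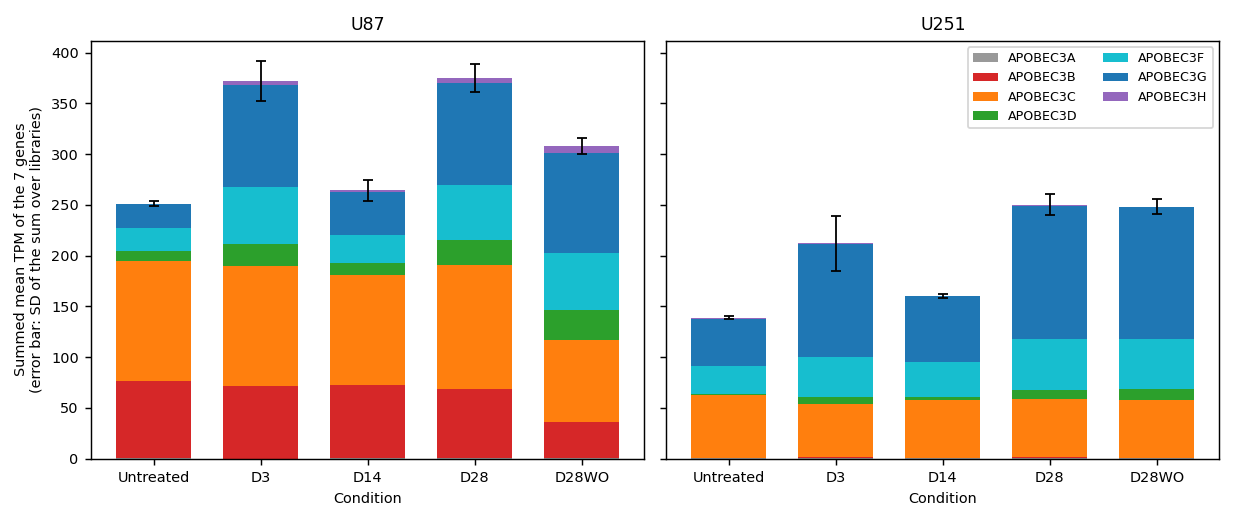
Summed mean TPM of the 7 APOBEC3 genes by condition in U87 (left) and U251 (right), stacked by gene, with error bars for the SD of the sum over the 2 or 3 libraries of a group. The U87 total went from 251.3 TPM in Untreated to 375 TPM at D28, and APOBEC3B (red) is a visible part of it only in U87.

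To evaluate the response to IFN-γ, each condition was compared with Untreated cells with limma on log2(TPM + 1), over genes that averaged 0.5 TPM or more across a line's libraries. A gene was called when its Benjamini-Hochberg adjusted p was under 0.05 and its log2 fold change was beyond 1 in either direction. Of the 7 members, 6 were tested in each line. APOBEC3A was tested in neither, since its highest value was 0.83 TPM in U87 and 0.66 TPM in U251, and most of its libraries were at or near 0. APOBEC3H of U87 passed the filter through its treated libraries alone, so its difference from Untreated follows from the filter in part, and counts against Untreated are also given without it. The 4 comparisons of a line share their Untreated libraries. No Untreated culture was sampled alongside D14, D28 or D28WO. In those comparisons the effect of IFN-γ and that of time in culture cannot be told apart. Fold changes are on the log2(TPM + 1) scale, which understates those of low genes such as APOBEC3D of U251. As U87 and U251 are cultures, differences in RNA per cell and in the number of expressing cells cannot be told apart.

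In U87, 4 of the 6 tested members rose at D3, against 5.85% of the 22918 genes tested that were called higher. They were the members at the far end of the cluster, APOBEC3D, APOBEC3F, APOBEC3G and APOBEC3H. Without APOBEC3H it was 3 of 5, with a median log2 fold change of 1.03, against 0.20 over all genes tested. APOBEC3G, the member best known for restricting HIV without Vif, was at 24.3, 28.2 and 18.4 TPM in the Untreated libraries and at 109.5 and 91.8 TPM at D3. The groups did not overlap, with a log2 fold change of 2.06 ± 0.17 (SE; limma, adjusted p = 8.83e-06). APOBEC3F, whose protein acts beside APOBEC3G against the same viruses, was at 30.7, 16.4 and 22.5 TPM in Untreated and at 57.9 and 55.1 TPM at D3 (log2 fold change 1.29 ± 0.20, limma adjusted p = 0.00126). APOBEC3D, a further Vif target, was at 10.2, 9.28 and 10.0 TPM and then at 23.4 and 19.1 TPM (log2 fold change 1.04 ± 0.14, limma adjusted p = 0.000662). APOBEC3H, listed at 0 in all Untreated libraries, was at 4.19 and 3.74 TPM at D3 (limma adjusted p = 7.04e-05), and no fold is given against a group at 0. The APOBEC3D call rested on single libraries. It was 0.90 without D3 replicate 2 and 0.9988 without Untreated replicate 2, and 0.65 and 0.85 under quantile and median-ratio scaling, and APOBEC3F had an adjusted p of 0.0761 with only the D3 and Untreated libraries in the fit.

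At D14, with IFN-γ still present, most of these differences were smaller. Apart from APOBEC3H, 0 of 5 tested members were called in U87 (limma), and 1 had an unadjusted p under 0.05. With APOBEC3H, which passed the filter through its treated libraries alone, it was 1 of 6. Of all genes tested, 1.89% were called higher. The APOBEC3H libraries were at 1.31 and 1.47 TPM (limma adjusted p = 0.017). Without either D14 library APOBEC3H was not called, which left 0 of 6. APOBEC3G was at 48.7 and 36.2 TPM, above every Untreated library, with a log2 fold change of 0.82 ± 0.17 (limma adjusted p = 0.0213), which is under the fold threshold. APOBEC3F stood at 24.6 and 30.0 TPM, within the Untreated range, and APOBEC3D at 12.8 and 10.9 TPM, just above it (adjusted p = 0.455 and 0.337 in limma).

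At D28, 4 of 6 rose again in U87, against 6.77% of all genes called higher, and APOBEC3D, APOBEC3F, APOBEC3G and APOBEC3H were once more those called, or 3 of 5 without APOBEC3H. APOBEC3G was at 101.0, 92.3 and 108.0 TPM (log2 fold change 2.06 ± 0.15, limma adjusted p = 2.56e-06). APOBEC3F was at 49.4, 55.6 and 57.9 TPM (1.23 ± 0.17, limma adjusted p = 0.000565). APOBEC3D was at 27.2, 23.5 and 23.2 TPM (1.24 ± 0.13, limma adjusted p = 4.68e-05). The libraries of these genes lay wholly above the Untreated ones. APOBEC3H was at 5.81, 3.95 and 4.66 TPM (limma adjusted p = 9.08e-06). Quantile normalization brought APOBEC3D to 0.86 and APOBEC3F to 0.97, under the fold threshold, and left 2 members called.

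After washout, 4 of 6 members were higher than in Untreated U87 cells, against 12.8% of all genes, and 1 was lower, against 2.12% of all genes. Without APOBEC3H, 3 of 5 were higher. APOBEC3G was at 100.8, 96.8 and 97.7 TPM (log2 fold change 2.03 ± 0.15, limma adjusted p = 1.55e-06). APOBEC3F was at 54.7, 59.4 and 53.7 TPM (1.28 ± 0.17, limma adjusted p = 0.000147). APOBEC3D was at 31.7, 30.3 and 27.5 TPM (1.51 ± 0.13, limma adjusted p = 4.42e-06). For APOBEC3D these were the highest libraries of the series. APOBEC3H was likewise highest here, at 6.82, 8.00 and 6.54 TPM (limma adjusted p = 1.15e-06). With quantile normalization APOBEC3F was at 0.97 and no longer called. That scaling called 1332 of all genes tested higher and 1226 lower, against 2933 and 485 without it.

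APOBEC3B and APOBEC3C, at the other end of the tested genes, had another course in U87. APOBEC3B, a nuclear enzyme with 2 deaminase domains, was at 75.1, 78.4 and 75.5 TPM in Untreated, 70.4 and 73.2 TPM at D3, 73.0 and 70.5 TPM at D14, and 67.7, 70.8 and 67.7 TPM at D28. Every treated library was below every Untreated one, but none of these 3 comparisons passed the test (limma adjusted p = 0.762, 0.805 and 0.508). After washout it was at 28.0, 31.1 and 48.4 TPM, a log2 fold change of -1.11 ± 0.15 (limma adjusted p = 0.000143), and it was the only member called lower in either line. Without D28WO replicate 1 the change was -0.96, under the fold threshold. APOBEC3C, a single-domain member, was at 114.3, 117.1 and 123.5 TPM in Untreated and between 107.0 and 131.6 TPM at D3, D14 and D28, where it did not pass the test. After washout its libraries were at 82.7, 75.9 and 83.0 TPM, below every other U87 library, with a log2 fold change of -0.55 ± 0.07 (limma adjusted p = 0.000106), short of the fold threshold.

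**Figure D3:**
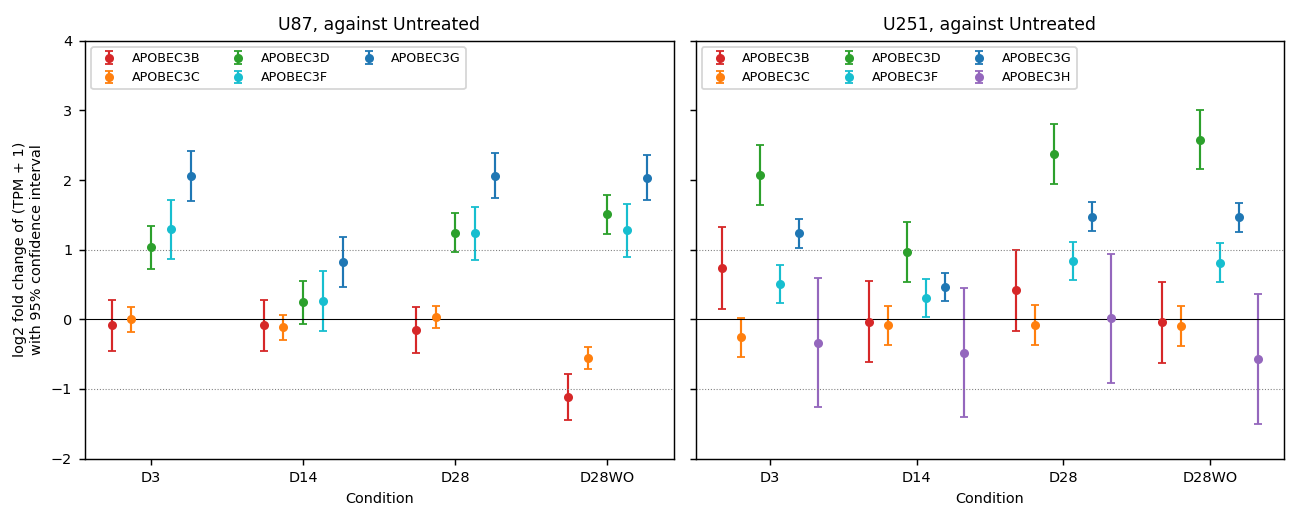
Log2 fold change of (TPM + 1) against Untreated, with 95% confidence intervals from limma, for the tested APOBEC3 genes at D3, D14, D28 and D28WO in U87 (left) and U251 (right); dotted lines mark the fold threshold. APOBEC3H of U87 is left out because its Untreated libraries are all at 0. APOBEC3G of U87 is near 2 at D3, D28 and D28WO and at 0.82 at D14.

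In U251, 2 of 6 tested members rose at D3, APOBEC3D and APOBEC3G, against 9.72% of the 23667 genes tested that were called higher. The median log2 fold change of the 6 was 0.62, against 0.13 over all genes. APOBEC3D was at 1.06, 0.59 and 1.05 TPM in Untreated and at 7.75, 6.21 and 6.87 TPM at D3 (log2 fold change 2.07 ± 0.20, limma adjusted p = 2.03e-06). APOBEC3G was at 43.2, 53.0 and 44.2 TPM and then at 100.05, 124.9 and 108.9 TPM (1.23 ± 0.09, limma adjusted p = 2.27e-07). Neither gene's libraries overlapped between the groups. APOBEC3F, at 32.1, 27.8 and 23.4 TPM in Untreated, was at 38.2, 38.9 and 41.3 TPM at D3 (0.50 ± 0.13, limma adjusted p = 0.00596), and stayed under the fold threshold. APOBEC3B had 0.25, 0.66 and 0.84 TPM in Untreated and 0.92, 2.71 and 1.498 TPM at D3 (0.74 ± 0.27, limma adjusted p = 0.0431), also under it and at a level close to the filter.

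At D14 no U251 member was called (limma), against 4.72% of all genes called higher, while 2 had an adjusted p under 0.05, as did 21.2% of all genes, and 3 an unadjusted p under it. APOBEC3D was at 3.01, 3.03 and 2.10 TPM, above every Untreated library, with a log2 fold change of 0.97 ± 0.20 (limma adjusted p = 0.00356). It was called, at 1.03, 1.03 and 1.09, without Untreated replicate 1, Untreated replicate 3 or D14 replicate 3, and at 1.51 with a pseudocount of 0.1. APOBEC3G was at 71.1, 62.9 and 60.5 TPM (0.46 ± 0.09, limma adjusted p = 0.00337).

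At D28 APOBEC3D and APOBEC3G rose again, 2 of 6 against 11.9% of all genes. APOBEC3D was at 7.62, 9.80 and 9.07 TPM (log2 fold change 2.38 ± 0.20, limma adjusted p = 4.84e-07), and APOBEC3G at 125.5, 132.7 and 135.5 TPM (1.47 ± 0.09, limma adjusted p = 3.33e-08). After washout the same genes were called higher, 2 of 6 against 4.07% of all genes. APOBEC3D was at 12.9, 9.49 and 8.86 TPM (2.58 ± 0.20, limma adjusted p = 3.69e-07), and APOBEC3G at 123.0, 134.3 and 134.0 TPM (1.46 ± 0.09, limma adjusted p = 6.05e-08). APOBEC3F had a log2 fold change of 0.84 ± 0.13 at D28 and 0.81 ± 0.13 after washout (limma adjusted p = 0.00013 and 0.000269), with libraries at 48.3 to 50.9 TPM and 41.6 to 57.1 TPM, all above Untreated.

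The other members of U251 did not pass the test in the 4 comparisons apart from APOBEC3B at D3. APOBEC3C was at 56.7 to 68.8 TPM in Untreated and at 43.4 to 68.1 TPM in the treated libraries, and these ranges overlapped at each time. APOBEC3H ranged from 0 to 1.64 TPM over the 15 libraries and was at 0 in 6 of them, and the ranges of its groups overlapped. APOBEC3H was thus detected in every treated U87 library, at 1.31 TPM or more, and in U251 at a level near the filter in both Untreated and treated cells. The difference between the lines was not tested.

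To compare the exposure times directly, D14 was tested against D3 and D28 against D14. In U87, 3 of 6 members fell from D3 to D14, against 2.05% of all genes called lower. These were APOBEC3G (log2 fold change -1.24 ± 0.18, limma adjusted p = 0.00186), APOBEC3F (-1.03 ± 0.21, adjusted p = 0.0176) and APOBEC3H (-1.06 ± 0.26, adjusted p = 0.0404). APOBEC3D changed by -0.79 ± 0.16 (limma adjusted p = 0.0121). This comparison has 2 libraries on each side. Without any 1 of the 4, APOBEC3G alone stayed called, at -1.44 to -1.03, and with only these 4 libraries in the fit the adjusted p was 0.136, 0.108 and 0.171 for APOBEC3G, APOBEC3F and APOBEC3H. APOBEC3H was also lost without Untreated replicate 1 or any 1 D28WO library (limma adjusted p = 0.0516 to 0.0646), and with a pseudocount of 0.1, no filter, quantile normalization or the replicate block (0.0787, 0.0757, 0.0542 and 0.0765). From D14 to D28, 3 of 6 members rose in U87, against 1.78% of all genes, with APOBEC3D at 1.00 ± 0.14, APOBEC3G at 1.23 ± 0.17 and APOBEC3H at 1.27 ± 0.24 (limma adjusted p = 0.00141, 0.00095 and 0.00955). APOBEC3D sat on the fold threshold. It fell below it under quantile normalization (0.93), median-ratio scaling (0.99), the replicate block (0.96) and array weights (0.99), and had an adjusted p of 0.0658 with the 2 groups alone in the fit. It was at 0.89 without D14 replicate 3, where APOBEC3H had an adjusted p of 0.0565. APOBEC3H was also lost without D14 replicate 2 (adjusted p = 0.0828), and APOBEC3D, at 0.93, without D28 replicate 1, where APOBEC3F was called at 1.03 (adjusted p = 0.0287).

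In U251, APOBEC3D was the only member called between D14 and D3, 1 of 6 against 3.29% of all genes called lower, with a log2 fold change of -1.10 ± 0.20 (limma adjusted p = 0.00111) that was -0.98 without D14 replicate 3. APOBEC3G changed by -0.77 ± 0.09 (limma adjusted p = 5.43e-05) and its D14 libraries, at 60.5 to 71.1 TPM, lay below all D3 libraries. From D14 to D28, 2 of 6 rose, against 4.23% of all genes. APOBEC3D changed by 1.41 ± 0.20 and APOBEC3G by 1.01 ± 0.09 (limma adjusted p = 0.000186 and 5.46e-06). APOBEC3G sat on the threshold, and was at 0.99, 0.96 and 0.99 without D14 replicate 2, D14 replicate 3 or D28 replicate 3. In both lines APOBEC3D and APOBEC3G were thus lower at D14 than at D3 and D28 by adjusted p, and the size of that dip was not compared between lines.

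The washout samples address whether levels went back once IFN-γ was withdrawn. Against D14, the time of withdrawal, 4 of 6 members of U87 were higher in D28WO, against 6.3% of all genes, and 1 was lower, against 3.39%. Those higher were APOBEC3D (log2 fold change 1.27 ± 0.14), APOBEC3F (1.01 ± 0.20), APOBEC3G (1.21 ± 0.17) and APOBEC3H (1.76 ± 0.24), with limma adjusted p of 8.04e-05, 0.00279, 0.000314 and 0.000281. APOBEC3B was lower, at -1.02 ± 0.17 (limma adjusted p = 0.00109). With the replicate number as a block, APOBEC3F (0.97) and APOBEC3B (-0.96) fell short of the fold threshold, which left 3 members called. APOBEC3F was at 0.87 and 0.97 without D14 replicate 2 or D28WO replicate 2, and APOBEC3B was at -0.87, -0.94 and -0.9965 without D28WO replicate 1, D28WO replicate 2 or D14 replicate 2. In U251, 1 of 6 was called higher, against 1.78% of all genes. This was APOBEC3D, at 1.61 ± 0.20 (limma adjusted p = 4.47e-05), and APOBEC3G was at 0.9993 ± 0.09 (adjusted p = 4.51e-06), just under the threshold, and at 1.07 and 1.04 without D14 replicate 1 or D28WO replicate 1.

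Against D28, the cells of the same day still in IFN-γ, no member was called in either line by limma, against 5.53% of all genes in U87 and 9.26% in U251. In U87 the 95% confidence interval of the log2 difference was -0.35 to 0.30 for APOBEC3G, -0.34 to 0.43 for APOBEC3F, -0.01 to 0.54 for APOBEC3D and 0.03 to 0.96 for APOBEC3H, whose D28WO libraries all lay above those of D28. In U251 it was -0.21 to 0.19 for APOBEC3G, -0.30 to 0.25 for APOBEC3F and -0.22 to 0.63 for APOBEC3D. Differences of up to these bounds are compatible with the data. In U251 the median of all genes tested was -0.12 in this comparison. APOBEC3B and APOBEC3C of U87 had an adjusted p under 0.05, as did 18.3% of all genes. APOBEC3B was lower in D28WO by a log2 fold change of -0.96 ± 0.15 (limma adjusted p = 0.00141), and APOBEC3C by -0.59 ± 0.07 (adjusted p = 0.000342), with no overlap between their libraries. Without D28WO replicate 3, the highest of the D28WO libraries, APOBEC3B was at -1.19 and called. At an unadjusted p under 0.05, 3 members of U87 differed, those 2 and APOBEC3H, and none of U251.

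**Figure D4:**
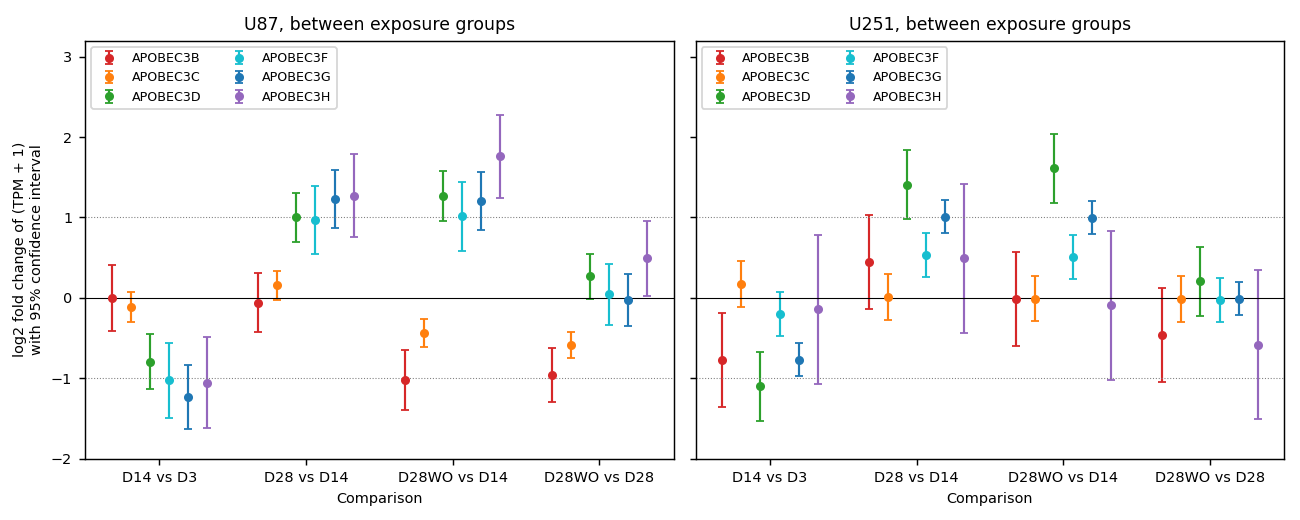
Log2 fold change of (TPM + 1) with 95% confidence intervals from limma for D14 against D3, D28 against D14, D28WO against D14 and D28WO against D28, in U87 (left) and U251 (right); dotted lines mark the fold threshold. The points of APOBEC3D, APOBEC3F and APOBEC3G are near 0 in the last comparison in both lines, and APOBEC3B and APOBEC3C of U87 are below it.

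Set against the median of all genes tested, the increases of U87 were smaller and its decreases larger. Relative to that median, APOBEC3G was at 1.86, 1.87 and 1.78 at D3, D28 and D28WO, APOBEC3F at 1.09, 1.04 and 1.03, and APOBEC3D at 0.84, 1.05 and 1.26. APOBEC3B was at -1.36 and APOBEC3C at -0.80 after washout. In U251 APOBEC3D was at 1.94, 2.21 and 2.57 and APOBEC3G at 1.10, 1.31 and 1.45. The direction of each of these was the same under quantile normalization and median-ratio scaling.

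The course of each called member over the 4 comparisons was also matched with that of all other genes tested, by the root mean square difference of their log2 fold changes. In U87 the nearest genes to APOBEC3B were MCM4 (0.07), CBR3 (0.07) and CDC45 (0.08). MCM4 and CDC45 encode parts of the replicative helicase, and CBR3 is a carbonyl reductase. Nearest to APOBEC3G were IFIH1 (0.08), the RNA sensor MDA5, H2AC6 (0.09), a histone gene, and HAPLN3 (0.14), a hyaluronan-binding link protein. Nearest to APOBEC3D were NMI (0.03), TLR4 (0.07) and WDR86 (0.07), and to APOBEC3F PTK2B (0.06), P2RX3 (0.07) and B3GALT4 (0.07). TLR4, WDR86 and P2RX3 averaged 0.89, 0.04 and 0.48 TPM in Untreated U87, so the pseudocount shapes their fold changes and their match. No match is given for APOBEC3H of U87, whose Untreated libraries are at 0. Among members, APOBEC3D and APOBEC3F were nearest to each other in U87 (0.17), which are also a pair with shared sequence. In U251 the nearest genes to APOBEC3D were TAP1 (0.16), the peptide transporter of antigen presentation, ZBP1 (0.17) and HLA-G (0.19), and to APOBEC3G they included DOCK9 (0.08) and PSMB10 (0.08), an immunoproteasome subunit. ZBP1 averaged 0.31 TPM in Untreated U251, where the pseudocount has the same effect.

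Of the genes flanking the cluster, none of the 6 tested in U87 and 1 of the 7 in U251 was called against Untreated at any time (limma). In each line 0 to 5 had an unadjusted p under 0.05, depending on the time. With 1.89% to 12.8% of all genes called higher in these comparisons, such counts do not set the neighbours apart. On the APOBEC3A side lie SUN2 and DNAL4, NPTXR, and the Polycomb gene CBX6. In U87 the log2 fold changes of SUN2 ranged from -0.16 to 0.07, of DNAL4 from 0.12 to 0.32, of NPTXR from -0.46 to 0.03 and of CBX6 from -0.23 to -0.03. On the APOBEC3H side lie CBX7, also of the Polycomb group, at -0.02 to 0.33, PDGFB, not tested in U87, and the ribosomal gene RPL3, at -0.50 to -0.13. In U251 NPTXR rose at D28 (log2 fold change 1.41, limma adjusted p = 1.09e-05), from a mean of 5.46 TPM to 16.0 TPM, and averaged 3.40 TPM after washout.

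**Figure D5:**
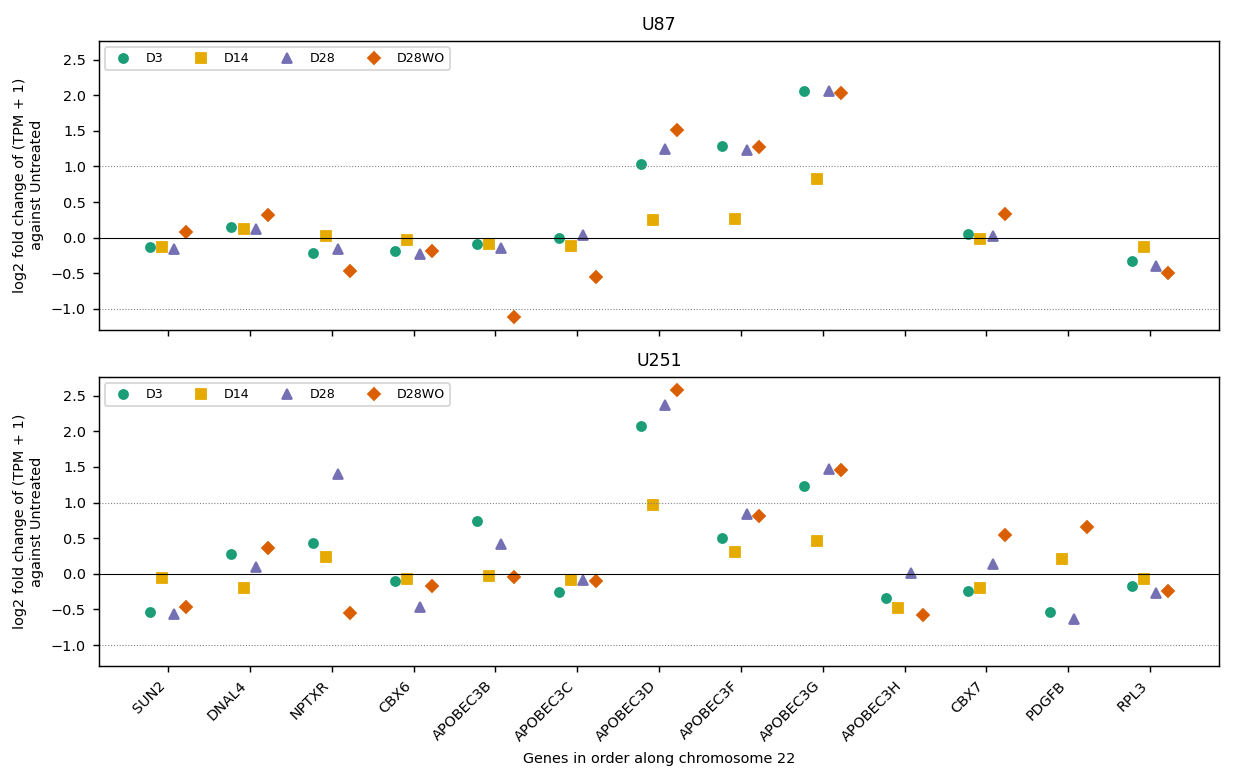
Log2 fold change of (TPM + 1) against Untreated for the tested APOBEC3 genes and their neighbours, in their order along chromosome 22 (not to scale), at D3, D14, D28 and D28WO in U87 (top) and U251 (bottom); dotted lines mark the fold threshold. APOBEC3H of U87 is left out because its Untreated libraries are at 0, and APOBEC3A and PDGFB of U87 were not tested. APOBEC3D and APOBEC3G exceed 1 at D3, D28 and D28WO in both lines, as does the neighbour NPTXR at D28 in U251.

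Of the 7 members, APOBEC3H alone had a promoter window among the RefSeq sequences used here (GRCh38.p14). Its 250 bases before the RefSeq start, chr22:39096994-39097243 on the plus strand, are shown because APOBEC3H was undetected in Untreated U87 and present in every treated library.
APOBEC3H, 250 bases before the RefSeq start: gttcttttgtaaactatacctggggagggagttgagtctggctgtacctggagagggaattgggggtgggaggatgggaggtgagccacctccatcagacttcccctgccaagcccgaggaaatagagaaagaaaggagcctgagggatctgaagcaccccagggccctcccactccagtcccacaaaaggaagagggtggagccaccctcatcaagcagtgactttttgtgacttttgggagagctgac
Neither strand of this window held the letters TTCNNNGAA (the GAS element, bound by STAT dimers), the core of the interferon-stimulated response element (GAAA, any 2 bases, GAAA), the kappaB motif or TTTGAA (the CHR element of cell cycle genes). Among 35116 windows of that length, 6.57%, 3.02%, 5.21% and 13.3% held them. The absence says only that these letters are not in this stretch, and no base is in capitals for that reason. The RefSeq start lies downstream of the GENCODE gene start given above, so the end of the window is inside the GENCODE gene.

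Transcription factors of the interferon response rose with the induced members in U87 at D3, D28 and D28WO. IRF1, IRF7, IRF9 and STAT2 were called higher at these 3 times and not at D14. At D14 STAT2 alone was higher with an adjusted p under 0.05 (limma), short of the fold threshold. IRF1, which binds the promoters of many interferon-induced genes, changed by 1.74, -0.13, 1.84 and 1.92 on the log2 scale at D3, D14, D28 and D28WO. In U251, IRF1, IRF9 and STAT2 were called higher at all 4 times, D14 included. No APOBEC3 gene was called in U251 at D14, but APOBEC3D (0.97) and APOBEC3G (0.46) were higher with an adjusted p under 0.05 (limma). They missed only the fold threshold. IRF1 of U251 changed by 2.04, 1.08, 2.08 and 2.13.

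Other factors that restrict retroelements were called in part. Of 15 tested in U87, 3, 2, 4 and 3 were called higher at D3, D14, D28 and D28WO, against 5.85%, 1.89%, 6.77% and 12.8% of all genes. BST2 (tetherin), which holds budding particles at the cell surface, averaged 1.98 TPM in Untreated, 139 TPM at D3, 7.71 TPM at D14 and 138 TPM in D28WO. MX2, which blocks nuclear import of lentiviruses, changed by 2.17, 1.17, 2.56 and 2.29, and the RNA helicase MOV10 was called at D3 and D28WO (1.10 and 1.29). TREX1, a nuclease that degrades cytosolic DNA, was called lower at D28WO (-1.30, limma adjusted p = 0.000563), as was APOBEC3B. In U251, 4, 4, 5 and 5 of 15 were called higher, against 9.72%, 4.72%, 11.9% and 4.07% of all genes, with MX2 up to 4.30, BST2 up to 3.59, SAMHD1 (which depletes nucleotides) up to 2.31 and TRIM22 up to 2.14. SERINC5, which lowers the infectivity of virus particles, was called lower there at D3 and D28 (-1.13 and -1.04, limma adjusted p = 9.29e-09 and 1.98e-08).

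Genes of the DREAM complex and its target MYBL2 were followed as the known regulators of APOBEC3B. In U87 none of 13 was called by limma at D3, D14 or D28, and 4, 1 and 5 had an unadjusted p under 0.05. Of all genes, 5.85%, 1.89% and 6.77% were called higher at these times, so 0 of 13 does not set the list apart. At D28WO, where 12.8% of all genes were called higher and 2.12% lower, MYBL2 fell by 1.51 and E2F1 by 1.24 on the log2 scale (limma adjusted p = 8.03e-05 and 1.41e-05). MYBL2 averaged 78.0 TPM in Untreated and 27.8 TPM in D28WO, the group in which APOBEC3B was lowest. In U251, E2F1 fell by 1.11 at D28WO (limma adjusted p = 8.64e-07), from 52.4 to 23.8 TPM, whereas APOBEC3B was at 0.31 to 0.68 TPM there. LIN54 (1.36 at D3), CDKN1A (1.23 at D14) and LIN37 (1.07 at D28) were called higher in U251. Of 5 NF-kB factors, which also act on APOBEC3B, RELB was called in U87 at D3 and D28WO (1.04 and 1.45) and NFKB2 at D28WO (1.08). In U251, RELB was called at D14 and D28 (1.15 and 1.09).

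Further lists hold genes that act on the product of deamination or on the APOBEC3 proteins themselves. Of 12 genes of uracil excision and abasic site repair, FEN1, the flap endonuclease, was the only one called, and it was lower at D28WO in both lines (-1.44 in U87 and -1.29 in U251, limma adjusted p = 5.27e-06 and 5.83e-07), where 2.12% of all genes in U87 and 800 of 23667 in U251 were called lower. None of 7 genes of the CUL5 ligase and neither of 2 tested ADAR genes, the adenosine deaminases of RNA, was called against Untreated in either line, and with 1.89% to 12.8% of all genes called higher in these comparisons such counts do not set lists of this size apart. By unadjusted p in limma, 2 to 4 genes of the ligase list were under 0.05 in U87 and 1 to 5 in U251, as were 1 or 2 of the ADAR genes at each time. ADAR of U251 had an adjusted p under 0.05 at all 4 times, with log2 fold changes of 0.80, 0.45, 0.62 and 0.95, which stayed under the fold threshold. So did ADAR of U87 at D3, D28 and D28WO (0.51, 0.46 and 0.81), and ADARB1 of U251 was at -0.65, -0.32 and -0.82 at D3, D14 and D28, each with an adjusted p under 0.05 (limma). ADARB1 of U87 went the other way, from a mean of 10.9 TPM in Untreated to 19.1 TPM at D28 and 17.15 TPM at D28WO. Both of these differences had an adjusted p under 0.05 (limma). Of 6 other genes of the AID/APOBEC family and its cofactors, APOBEC1 was listed at 0 in both lines in every group. RBM47, a cofactor of APOBEC1, was called at D28 in U251 (1.01, limma adjusted p = 5.30e-07).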

How the data were processed

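RNA-seq of U87 and U251 cells was analysed from TPM values that the authors deposited, 1 table per line. Per the labels, TruSeq libraries were read as paired 150-base reads, and the submitters' processing notes name FastQC, Trim Galore, STAR, featureCounts, edgeR and GRCh38. How TPM was computed and whether strand was used is not given in the sources used here. Libraries were tied to columns by name, and 2 U87 columns sharing a name were left out. No pair of libraries was identical (within-group correlation 0.9588 to 0.9736). The methods describe the replicates as biological triplicates.

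Genes averaging at least 0.5 TPM (22918 in U87, 23667 in U251) were tested on log2(TPM + 1) with limma 3.58.1 under R 4.3.3, using lmFit and eBayes with an intensity trend, 1 fit per line, 8 comparisons and Benjamini-Hochberg adjustment over all genes of a comparison. TPM does not allow the count models the authors used. On simulated data, 58.5% of 200 genes changed by 1.5 (log2) were recovered for D3 against Untreated of U87, with 4 false calls, and 70.0% for U251, with 4. The lines were not tested against each other, and TPM keeps no read depth from which to give a counting error per library.

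The members and 11 further lists (other AID/APOBEC genes, ADAR genes, uracil repair, interferon factors, NF-kB factors, DREAM and MYBL2 factors, the CUL5 ligase, other restriction factors, chromosome 22 neighbours, immune markers and glioma markers) were chosen with earlier results of these data known. All members and neighbours are named, up to 4 called genes per list and line by size of change, and the 3 genes nearest in course to each called member other than U87 APOBEC3H. SOX2, CD3D, CD2, CD3E, CD4, MS4A1, CD68 and APOBEC1 were named outside this rule, after their values were seen, and some genes that the rule names are not reported here. Gene models and motif sequences came from GENCODE release 44, and 1 promoter window from RefSeq. Alternatives were a pseudocount of 0.1, no filter, a filter at 1 TPM, quantile and median-ratio scaling, fitting the 2 compared groups alone, a replicate block, array weights, adjusted p alone, and leaving out each library. Python 3.11.15 and matplotlib 3.10.9 drew the figures.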

Additional observations from a re-analysis of the deposited data

Results flagged for a closer look

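The change against Untreated differed between exposure times for several members by the limma contrast of the times themselves, which drew attention to them. In U87 it was lower at D14 than at D3 for APOBEC3F (-1.03), APOBEC3G (-1.24) and APOBEC3H (-1.06), on the log2 scale. It was higher at D28 than at D14 for APOBEC3D (1.00), APOBEC3G (1.23) and APOBEC3H (1.27). It was higher in D28WO than at D14 for APOBEC3D (1.27), APOBEC3F (1.01), APOBEC3G (1.21) and APOBEC3H (1.76), and lower for APOBEC3B (-1.02). In U251 APOBEC3D was lower at D14 than at D3 (-1.10), higher at D28 than at D14 (1.41) and higher in D28WO than at D14 (1.61), and APOBEC3G was higher at D28 than at D14 (1.01).

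All 3 D3 libraries of U251 lay above the Untreated ones for APOBEC3B (log2 fold change 0.74), whereas both D3 libraries of U87 lay below theirs (-0.0875). The difference between the lines was not tested, and the U251 levels were at most 2.71 TPM.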

How the results depend on the processing

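Of 368 recomputed counts of called members, 330 stayed within 1.5 times the value given. With each library left out in turn, the counts against Untreated were 3 to 4 (D3), 0 to 1 (D14), 4 (D28) and 4 to 5 (D28WO) in U87, and 2 in U251 save for 0 to 1 at D14. They were 1 to 3 in U87 D14 against D3 and D28 against D14, 3 to 5 in U87 D28WO against D14, 0 to 1 in U87 D28WO against D28, 0 to 1 in U251 D14 against D3, and 1 to 2 in U251 D28 and D28WO against D14. With adjusted p as the only criterion, 2 members passed in U87 D14 against Untreated, 2 in U87 D28WO against D28, 4 in U251 D3 and 2 in U251 D14 against Untreated, 2 in U251 D14 against D3, and 3 in U251 D28WO against D14. Quantile normalization gave 2 in U87 D28 against Untreated, 1 in U87 D28WO against D28 and 2 in U251 D28WO against D14, and median-ratio scaling 1 in U87 D28WO against D28, 1 in U251 D28 against D14 and 2 in U251 D28WO against D14. A pseudocount of 0.1 and array weights each gave 1 in U251 D14 against Untreated and 2 in U251 D28WO against D14. With only the compared groups fitted, 0 members were called in U87 D14 against D3 and 1 in U87 D28 against D14, from fewer libraries. The replicate number as a block gave 3 in U87 D28WO against D14 and moved no other count by more than 1.5 times, though APOBEC3H of U87 D14 against D3 (adjusted p = 0.0765) and APOBEC3D of U87 D28 against D14 (0.96) also lost their calls. Same-numbered libraries did not deviate together (correlations of -0.058 to 0.0472 in U87 and -0.0375 to 0.048 in U251), so the numbers were not taken as pairs. For changes other than fewer libraries, the cause was not tested. Of 1198 recomputed single fold changes, 1126 kept direction and call, 52 lost the call, 15 gained it and 5 changed sign, all between D28WO and D28 and near 0. APOBEC3G of U251 was at 0.0791 with median-ratio scaling and -0.0411 to 0.0320 without single libraries, and APOBEC3F and APOBEC3G of U87 were at -0.0212 to 0.0910 and -0.0847 to 0.0274. Among 37 further differences without an adjusted p under 0.05, 47 of 790 recomputed values changed sign and 0 were called. Over all genes of U87, the calls higher and lower against Untreated were 1340 and 88 at D3, 433 and 48 at D14, 1552 and 140 at D28 and 2933 and 485 at D28WO. With quantile normalization they were 543 and 279, 118 and 95, 663 and 389, and 1332 and 1226. With only the compared groups fitted they were 585 and 41, 48 and 3, 1020 and 93, and 2818 and 452. At D14 they were 248 and 21 without a filter and 240 and 66 with median-ratio scaling. Calls in U87 went from 132 higher and 470 lower to 0 in D14 against D3 and from 409 and 76 to 192 and 47 in D28 against D14 with only the compared groups. In U251 the calls against Untreated were 2301 and 1077 at D3, 1118 and 245 at D14, 2808 and 792 at D28 and 963 and 800 at D28WO. With quantile normalization the U251 calls were 1474 and 1513, 668 and 407, 1570 and 1433, and 890 and 856. The tables hold no read depth per library, which limits statements on APOBEC3A, APOBEC3H and U251 APOBEC3B.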
